A study of Homo sapiens with 22 samples.

Results

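The regions described here are 2279 places in the human genome where the transcription factor FOXA2 was called in 2 prostate cancer cell lines, PC3 and NCI-H660. They were selected on measured values. A region of the PC3 vehicle FOXA2 list became a member when at least 1 bp of it was also covered by the NCI-H660 vehicle FOXA2 list, provided that no more than 16 of the 22 deposited lists covered it. The PC3 vehicle list held 24038 regions and the NCI-H660 vehicle list 11886. Of the PC3 regions, 2670 met a NCI-H660 region, and 391 of those were left out because 17 or more lists covered them. The members were therefore 9.48% of the PC3 list, and they met 2278 distinct NCI-H660 regions. The remaining regions under the same limit, 21356 PC3-only and 9206 NCI-H660-only, served for comparison. Presence in both vehicle lists, the number of lists and the vehicle scores belong to the selection and are given as description. At the limit itself, 126 members were in 16 lists, while 101 overlapping PC3 regions stood in 17 lists and fell outside.

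The series profiled chromatin by ChIP-seq, in which antibody-bound DNA fragments are sequenced, and by ATAC-seq, in which a transposase cuts and tags open DNA. PC3 came from a bone metastasis, NCI-H660 came from a neuroendocrine tumour of the prostate, and LNCaP is of luminal type. In PC3, FOXA2 was profiled with vehicle, with ORY-1001 at 10 µM for 4 h and with C12 at 0.5 µM for 4 h, both inhibitors of the histone demethylase LSD1, and in NCI-H660 with vehicle and with ORY-1001 at the same dose and time. JUN was profiled after a negative control siRNA (siNC) or an siRNA against FOXA2 (siFOXA2) in both lines, and FOSL1 likewise in PC3. Vehicle-treated PC3 also gave ATAC-seq and H3K27ac lists, and vehicle-treated NCI-H660 gave ATAC-seq and H3K4me2 lists. A further 2 vehicle FOXA2 ChIPs of PC3 carried no antibody in their labels. The LNCaP lists were JUN after siNC or siFOXA1, JUN and FOXA2 in LNCaP_FOXA2OE, which overexpresses FOXA2, and JUN in LNCaP_FOXA2K265R, for which the labels named no antibody and gave LNCaP_FOXA2OE as the line. Each of the 22 lists was 1 library of an established line. Only vehicle FOXA2 of PC3 had further ChIPs, so no other result had a replicate check. No p-value was computed. Intervals are 95% (Wilson for a share, Newcombe for a difference) and cover counting error over regions only, and regions of 1 library are not replicates of a condition. Read depth was unknown, since the files gave regions without read counts. Each list gave a whole-number score per region, taken as the peak caller's −log10 q-value times 10, except LNCaP siNC JUN and LNCaP_FOXA2OE FOXA2, which gave none.

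FOXA2 is a forkhead factor of endoderm-derived organs and is known as a pioneer factor: its winged-helix domain can bind its site on nucleosomal DNA and open the chromatin for other factors. It is expressed in the developing prostate and again in neuroendocrine prostate cancer. LSD1 (KDM1A) removes methyl groups from lysine 4 of histone H3 and from non-histone proteins. JUN and FOSL1 are subunits of AP-1, a dimeric factor with its own recognition site that is active in mesenchymal and stress states. H3K27ac marks active enhancers and promoters, and H3K4me2 marks both kinds of element more broadly.

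Members were narrow regions, 342 bp wide at the median (226 to 1459 bp), and the calls of both lines fell on nearly the same bases. The overlap was 260 bp at the median and was under 50 bp in 5 members. The centres of the paired calls were 25 bp apart at the median and within 50 bp in 74.0% of members. The score in the PC3 vehicle list was 231 at the median (15 to 8091), against 143 over the PC3-only regions. In the NCI-H660 vehicle list it was 161 (13 to 4627), against 125 over the NCI-H660-only regions. The rank of a member in one line said little about its rank in the other: Spearman's rho of the paired score percentiles was 0.38 over the 2279 members and 0.24 over the subset called again in further PC3 ChIPs. A member was covered by 11 lists at the median (2 to 16), against 6 for PC3-only and 4 for NCI-H660-only regions.

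The label "shared FOXA2 regions" did not hold equally for all members. Of the 2279, 1743 (76.5%) were also called in both other PC3 FOXA2 ChIPs and are termed repeated members, while 536 were not, and 508 of these were called in neither. Among the PC3-only regions 92.5% were repeated (19747 regions). These other lists held 77822 and 62714 regions, more than the selecting list. The paper reports similar results with multiple FOXA2 antibodies, but its main text does not tie them to these ChIPs. The labels gave the selecting list a Millipore FOXA2 antibody, whereas the study's methods named another supplier, so it is not known whether the 3 ChIPs used the same antibody. The 2 kinds of member differed in their DNA. The central 32 bases occurred more than once in the genome for 7.34% (6.21 to 8.66%) of repeated members and 62.9% (58.7 to 66.9%) of non-repeated members, and 10 times or more for 4.65% and 49.6%. The same count was 4.32% for repeated PC3-only regions, 22.4% for non-repeated PC3-only regions, 10.9% for NCI-H660-only regions and 60.5% for the PC3 regions covered by 17 or more lists. Within 5 Mb of an assembly gap of 1 Mb or more, such as a centromere, lay 5.68% of repeated and 19.6% of non-repeated members. Non-repeated members were also the ones found in the 3 shortest LNCaP lists (JUN after siNC, JUN after siFOXA1, and FOXA2 in LNCaP_FOXA2OE). At least 1 of these lists covered 88.6% (475) of non-repeated members, 6.71% (117) of repeated members, 3.26% of PC3-only and 2.82% of NCI-H660-only regions. LNCaP does not normally express FOXA2. Copies of the sequence, gaps, the LNCaP lists and absence from the other PC3 ChIPs thus moved together in these 536 regions, and their part in the results was not tested. The results below are given for the repeated members first, with the non-repeated ones and the whole set beside them. NCI-H660-only regions carry no such filter, so repeated members are set against them with a filter on 1 side only.

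**Figure D1:**
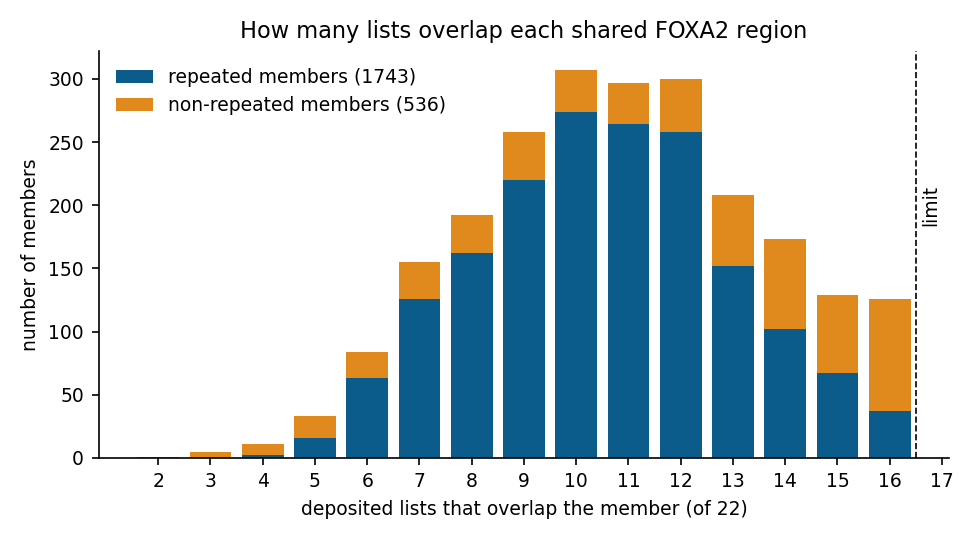
Number of members (y axis) by how many of the 22 deposited lists overlap them (x axis), with repeated and non-repeated members stacked and the limit of the selection as a dashed line. The median is 11 lists for repeated and 13 for non-repeated members, which make up more of the bars near the limit of 16.

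DNA at the centre of the highest-ranked and most named repeated members is shown first, because most repeated members hold a forkhead match there. Each run is 150 bases of the forward strand of GRCh37 (hg19), with matches to the forkhead pattern in capitals. The pattern was TNTTTNN with A or G at positions 2 and 6 and C or T at position 7, on either strand.

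ITPA, chr20:3203621-3203770: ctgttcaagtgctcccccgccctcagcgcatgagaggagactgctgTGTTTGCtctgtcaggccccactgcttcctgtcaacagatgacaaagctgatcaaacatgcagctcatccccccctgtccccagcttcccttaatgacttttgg
RXYLT1, chr12:64199912-64200061: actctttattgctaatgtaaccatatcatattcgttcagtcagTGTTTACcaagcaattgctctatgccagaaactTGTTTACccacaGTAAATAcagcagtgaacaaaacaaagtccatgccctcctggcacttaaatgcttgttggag
FAM83B, chr6:54520105-54520254: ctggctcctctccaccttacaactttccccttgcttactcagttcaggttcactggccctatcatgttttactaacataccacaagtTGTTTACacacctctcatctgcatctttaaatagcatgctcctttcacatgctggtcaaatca
FOXP1, chr3:70787187-70787336: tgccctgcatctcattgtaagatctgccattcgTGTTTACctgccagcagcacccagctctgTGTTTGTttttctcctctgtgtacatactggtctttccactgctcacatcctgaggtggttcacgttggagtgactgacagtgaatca
RUNX1, chr21:36250910-36251059: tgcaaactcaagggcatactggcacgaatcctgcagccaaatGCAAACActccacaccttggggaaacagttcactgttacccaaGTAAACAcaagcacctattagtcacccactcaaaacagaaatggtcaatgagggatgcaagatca
TP63, chr3:189430972-189431121: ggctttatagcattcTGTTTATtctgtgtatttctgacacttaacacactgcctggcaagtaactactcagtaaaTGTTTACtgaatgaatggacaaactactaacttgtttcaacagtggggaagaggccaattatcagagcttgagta

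These windows lie in an intron of ITPA (inosine triphosphate pyrophosphatase), an intron of RXYLT1 (a glycosyltransferase of dystroglycan), intergenic DNA nearest to FAM83B, intergenic DNA nearest to FOXP1 (a forkhead repressor), an intron of RUNX1 (a runt-domain factor) and an intron of TP63 (the p63 factor of basal epithelium). The matches in the RXYLT1 window stand on both strands, and those in the RUNX1 window are on the reverse strand. The next pair is shown because a forkhead match and an AP-1 match, also in capitals, occur in the same window, in an intron of ATF3 (a bZIP partner of JUN) and an intron of LEF1 (a nuclear effector of WNT signalling). The AP-1 pattern was TGANTCA with C or G in the middle, which covers both strands at once.

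ATF3, chr1:212740566-212740715: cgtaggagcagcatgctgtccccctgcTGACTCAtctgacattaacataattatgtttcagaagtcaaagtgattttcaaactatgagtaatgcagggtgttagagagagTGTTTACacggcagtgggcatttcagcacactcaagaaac
LEF1, chr4:109039771-109039920: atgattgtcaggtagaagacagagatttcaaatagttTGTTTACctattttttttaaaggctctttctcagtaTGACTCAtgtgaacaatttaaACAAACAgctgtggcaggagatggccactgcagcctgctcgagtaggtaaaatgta

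Against these stands the window of a non-repeated member, which holds no match to either pattern. It is a run of a short repeated unit in intergenic DNA nearest to CWH43.

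CWH43, chr4:49132012-49132161: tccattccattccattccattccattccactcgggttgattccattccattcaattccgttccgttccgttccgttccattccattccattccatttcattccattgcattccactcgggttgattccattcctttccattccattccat

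Counted over 200 bases around the centre, the forkhead pattern was present in 88.2% (86.6 to 89.7%) of repeated members and 37.9% (33.9 to 42.1%) of non-repeated members. In windows of the same length 2 kb to either side it was present in 32.3% and 33.6%, so the non-repeated members stood close to their own flanks. Repeated PC3-only regions held it in 80.1% and NCI-H660-only regions in 77.7%. The difference was 8.13 points (6.44 to 9.67) against repeated PC3-only regions. For the paired NCI-H660 calls, of which 87.8% held the pattern, it was 10.1 points (8.27 to 11.8) against NCI-H660-only regions. These differences were 5.98 and 6.66 points when the comparison regions were weighted to the members' score deciles. Over all 2279 members the share was 76.4%, against 78.2% of all PC3-only and 77.7% of NCI-H660-only regions, and both differences had intervals that included 0. After score weighting they were −4.14 and −3.95 points, the latter over the paired NCI-H660 calls. The AP-1 pattern was rarer in members than in PC3-only regions: 18.5% (16.7 to 20.4%) of repeated members held it, against 29.0% of repeated PC3-only regions, 4.81% of NCI-H660-only regions and 2.47% of the members' own flanks. Non-repeated members held it in 1.31%, as often as their flanks (1.40%). Both patterns in the same window occurred in 15.9% of repeated members, against 21.5% of repeated PC3-only and 3.48% of NCI-H660-only regions. On this measure members stood between the regions of either line alone.

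Other patterns were searched in the same windows on both strands. The GC box of SP and KLF factors (GGGCGG) was present in 7.92% of repeated members, against 3.65% of their flanks, 1.93% of repeated PC3-only and 3.85% of NCI-H660-only regions. The E-box of neurogenic bHLH factors (CAGNTG with A or C at N) stood at 25.3% in repeated members, 20.6% in repeated PC3-only and 28.3% in NCI-H660-only regions. The SOX pattern (ACAANG with A or T at N) stood at 40.9% in repeated members (flanks 27.7%), 40.5% in repeated PC3-only and 37.7% in NCI-H660-only regions. It can share bases with a forkhead match. The ONECUT pattern (ATNGAT with C or T at N) stood at 22.6% in non-repeated members, but their flanks held it in 22%. In repeated members the HNF1 pattern (GTTAAT) stood at 7.17% (flanks 8.28%), the GATA pattern (AGATAA) at 10.9% (flanks 14.1%) and the TEAD pattern (GGAATG) at 11.4% (flanks 9.94%). The CRE, ETS, CEBP, HNF4 and octamer patterns were each at 3.84% or less in repeated members. A match is a description of letters and says nothing about which factor was bound.

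**Figure D2:**
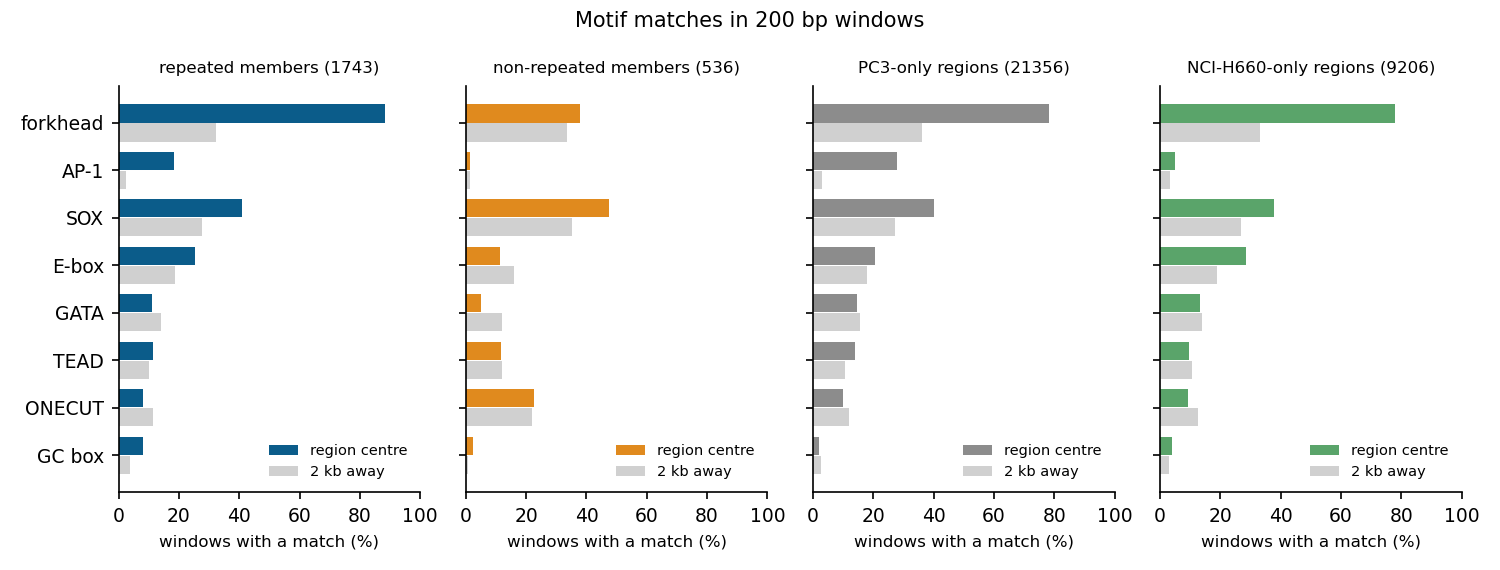
Share of 200-base windows with a match (x axis, percent) for 8 patterns in repeated members, non-repeated members, PC3-only and NCI-H660-only regions, with the region centre as the coloured bar and windows 2 kb away as the pale bar. The forkhead bar at the centre is 88.2% in repeated members and 37.9% in non-repeated members, whose flanks hold the pattern in 33.6%.

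Repeated members, selected for a FOXA2 call in both lines, were mostly open chromatin in both. Regions called in 1 line alone were mostly open in that line too, so openness in both lines goes with the selection. PC3 ATAC-seq covered 94.1% (92.9 to 95.1%) of repeated members and NCI-H660 ATAC-seq 95.4% (94.3 to 96.3%). Both lists covered 90.6% of repeated members (1579 of 1743) and 77.8% of all members, and the latter was 32.8% when an overlap of 50% of both regions was asked for. Such an overlap also depends on width. The median width was 221 bp in the PC3 ATAC-seq list and 530 bp in that of NCI-H660, against 342 bp for members. The part of width in that fall was not tested. Of repeated members PC3 alone covered 3.5%, NCI-H660 alone 4.82%, and neither line 1.09% (19 regions). By contrast, NCI-H660 ATAC-seq covered 15% of repeated PC3-only regions, and PC3 ATAC-seq covered 19.6% of NCI-H660-only regions. In the line where FOXA2 was called, openness was near the same in repeated members and others. In PC3 it was 94.1% against 91.4%, a difference of 2.68 points (1.41 to 3.77) and −0.24 after score weighting. For the paired NCI-H660 calls the difference was 2.68 points (1.48 to 3.71). Over all members the sign was the other way. The difference was −1.82 points (−3.29 to −0.46) in PC3. For the paired NCI-H660 calls it was −9.82 points (−11.5 to −8.23) and −11.6 after weighting. Repeated members were high in the accessibility lists as well, at the median percentile 84.2 in PC3 and 81.5 in NCI-H660 where covered. Non-repeated members were covered in PC3 in 66.2%, in NCI-H660 in 42.4%, in both in 36.4% and in neither in 27.8%. Where covered, they stood at the median percentile 60.1 in PC3 and 27.7 in NCI-H660.

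Histone marks were measured in 1 line each. H3K27ac of PC3 covered 67.1% (64.9 to 69.3%) of repeated members and 59.7% of repeated PC3-only regions, a difference of 7.42 points (5.07 to 9.69) that fell to 0.52 after weighting to the members' scores. H3K4me2 of NCI-H660 covered 64.8% (62.6 to 67.0%) of repeated members, against 60.8% of NCI-H660-only regions. For the paired NCI-H660 calls that difference was 3.41 points (0.92 to 5.84) and fell to 0.04 after weighting. At regions of the other line the marks were scarce: H3K27ac of PC3 covered 9.45% of NCI-H660-only regions, and H3K4me2 of NCI-H660 covered 7.09% of repeated PC3-only regions. Both marks together covered 50.03% (872) of repeated members and 39.7% (213) of non-repeated members.

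**Figure D3:**
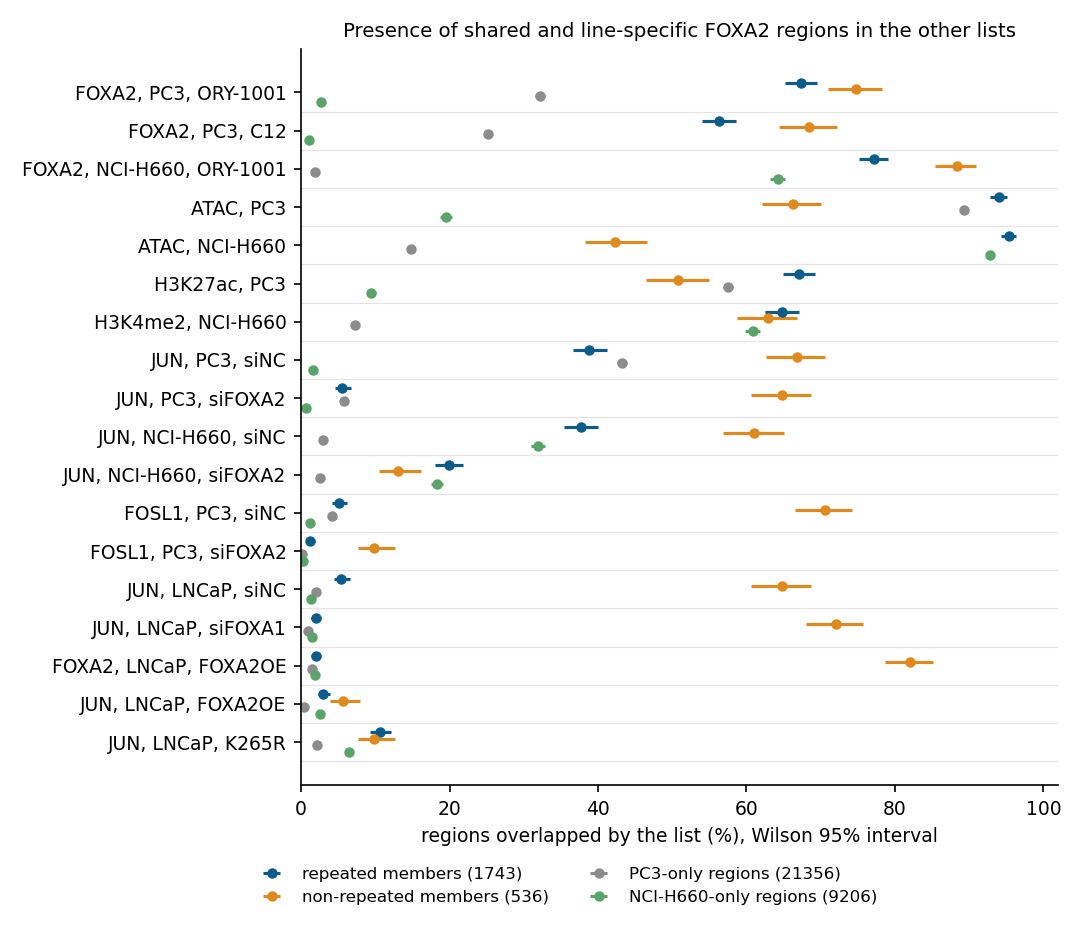
Share of each group covered by the other FOXA2, ATAC-seq, histone mark and AP-1 lists (x axis, percent, with Wilson 95% intervals; 1 row per list), for repeated members, non-repeated members, PC3-only and NCI-H660-only regions. Repeated members are open in both lines (94.1% and 95.4%), whereas non-repeated members are the group covered by the short LNCaP lists and by FOSL1 after siNC (70.5%).

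The study asked whether LSD1 inhibition removes FOXA2 from chromatin. From signal heatmaps the paper reports that inhibition disrupted FOXA2 binding globally in both lines, with ChIP-qPCR at chosen sites. A region counts as kept here when the FOXA2 list of treated cells still covered it. A region not kept may have lost signal or may have dropped below the caller's threshold. A kept region may have lost signal too, so kept shares are a different measure from the paper's. The treated PC3 lists were shorter than the vehicle list, with 13732 regions for ORY-1001 and 8352 for C12, while the NCI-H660 list changed from 11886 to 11469. Of all PC3 vehicle regions under the limit, ORY-1001 kept 35.8% and C12 kept 28.5%. Members were kept more often: 69.2% (67.2 to 71.0%) under ORY-1001 and 59.2% (57.2 to 61.2%) under C12. Among the 1743 repeated members ORY-1001 kept 1175 (67.4%) and C12 kept 982 (56.3%), against 33.3% and 26.3% of repeated PC3-only regions. The differences were 34.1 points (31.8 to 36.4) for ORY-1001 and 30.03 points (27.6 to 32.4) for C12. Both were positive on each of the 21 chromosomes with at least 20 repeated members. Non-repeated members were kept in 74.8% and 68.5%. The ORY-1001 and C12 shares rest on the same vehicle library, and dose differed, so they stand side by side without a comparison of the compounds.

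How often a region was kept rose with its vehicle score. Among PC3 vehicle regions of the lowest decile ORY-1001 kept 14.3% of 56 repeated members and 6.64% of 1490 repeated PC3-only regions. In the highest decile it kept 92.0% of 452 and 80.4% of 1760. Under C12 the shares ran from 10.7% to 94.9% in repeated members and from 2.35% to 86.6% in repeated PC3-only regions. Members scored higher than PC3-only regions, and after weighting by decile the difference was 19.5 points for ORY-1001 and 13 points for C12. The gap was widest in the upper middle of the scores: in the eighth decile ORY-1001 kept 80.2% (74.6 to 84.7%) of repeated members and 51.8% (49.7 to 54.0%) of repeated PC3-only regions. Under ORY-1001 in PC3 the non-repeated members did not follow that order throughout. It kept 59.0% (47.9 to 69.2%) of those in the lowest decile, 90.9% (78.8 to 96.4%) in the sixth and 69.4% (53.1 to 82.0%) in the highest. C12 kept 41.0% of non-repeated members in the lowest decile, 91.1% in decile 7 and 80.6% in the highest. In NCI-H660, ORY-1001 kept 60.7% of them in the lowest decile and 100% in the highest. Each inhibitor list also counts toward the limit of 16 lists, so the limit itself bounds these shares.

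**Figure D4:**
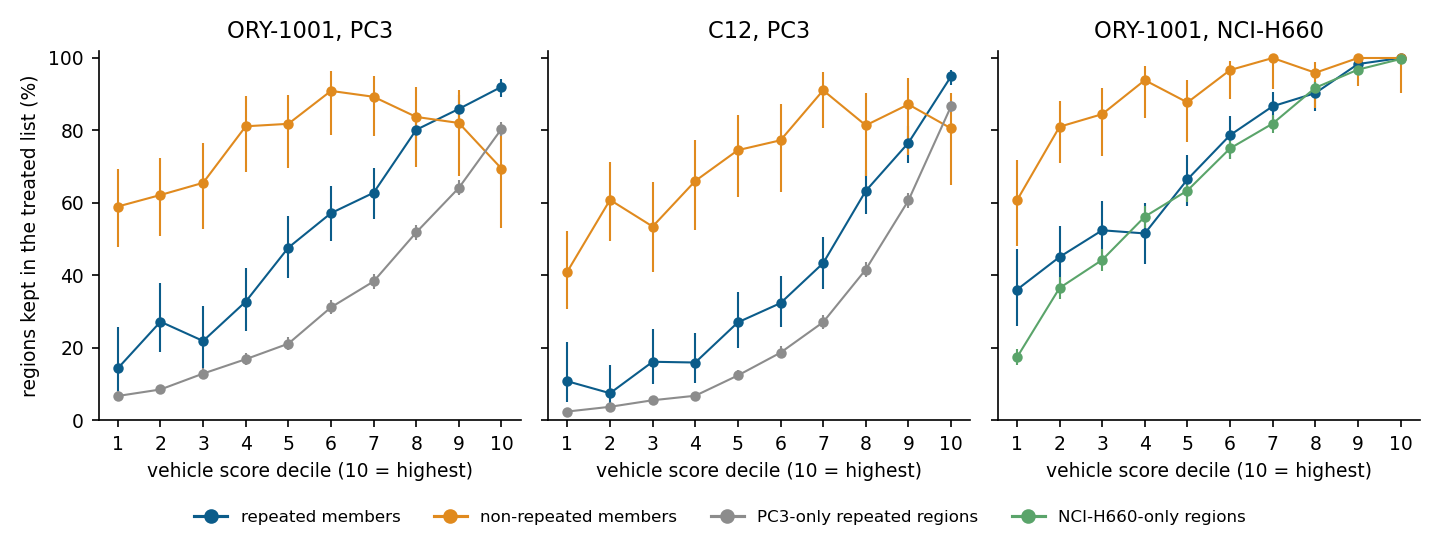
Share of regions kept under ORY-1001 in PC3, C12 in PC3 and ORY-1001 in NCI-H660 (y axis, percent) against the decile of the vehicle score (x axis, lowest to highest), with Wilson 95% intervals, for repeated and non-repeated members, repeated PC3-only and NCI-H660-only regions. In PC3 the repeated members lie above the PC3-only regions, from 14.3% against 6.64% in the lowest decile to 92.0% against 80.4% in the highest under ORY-1001.

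In NCI-H660, the ORY-1001 list still covered most regions, which does not measure the signal that the paper compared. Of all vehicle regions under the limit 67.3% were kept, against 79.9% (78.2 to 81.5%) of members, 77.3% of repeated members and 88.4% of non-repeated members. NCI-H660-only regions were kept in 64.2%. The difference for the paired calls of repeated members was 13.1 points (10.8 to 15.2) and 3.09 points after weighting to their scores, so here most of it went with the score. For the paired calls of all members it was 15.7 points and 8.57 after weighting. Over both lines, 937 repeated members (53.8%) were kept under ORY-1001 in PC3 and NCI-H660, 238 (13.7%) in PC3 only, 410 (23.5%) in NCI-H660 only and 158 (9.06%) in neither. NCI-H660 kept 79.7% (77.4 to 81.9%) of those kept in PC3 and 72.2% (68.4 to 75.7%) of those not kept in PC3. Of the repeated members, 724 (41.5%) were in all 3 inhibitor lists and 130 (7.46%) were in none.

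Among repeated members, the classes kept under ORY-1001 in PC3 had H3K27ac and JUN of PC3 more often than the classes not kept there. Among the 937 kept in both lines, H3K27ac of PC3 covered 77.2% and JUN of PC3 46.5%. The 410 kept only in NCI-H660 had H3K27ac in 42.0% and JUN of PC3 in 17.6%, the lowest of these 4 classes in both. The 238 kept only in PC3 had H3K27ac in 77.3%, JUN of PC3 in 51.3% and the AP-1 pattern in 25.6%. The 158 kept in neither had H3K27ac in 57.6% and JUN of PC3 in 29.7%. Vehicle scores moved with these classes too: the median percentiles in PC3 and NCI-H660 were 83.1 and 74.7 for members kept in both lines and 48.3 and 28.3 for those kept in neither. Their part in the differences in marks was not tested.

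Single members show these patterns at their extremes. The highest-ranked was in an intron of ITPA at chr20:3203494-3203897, with a FOXA2 score of 2432 in PC3 vehicle, 3108 with ORY-1001 and 2002 with C12, and 1385 and 1389 in NCI-H660 without and with ORY-1001. It was kept in every treated list, and JUN covered it in both lines with scores of 956 and 383. The member in RXYLT1 at chr12:64199751-64200223 scored 1714 in PC3 vehicle, 162 with ORY-1001 and 447 with C12. In NCI-H660 the same region scored 1461 and 1480, so the lower scores were in PC3 only. The intergenic member nearest to FAM83B at chr6:54519945-54520415 scored 1421, 1007 and 680 in PC3 and 2225 and 2105 in NCI-H660, and JUN covered it in neither line. Scores of different libraries depend on their depth, which is unknown, and no ratio of scores was computed.

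A pair of promoters stood among the 6 highest members. The promoter of BCL9, a coactivator of β-catenin, at chr1:147084195-147084605 scored 1579 in PC3 vehicle, 1127 with ORY-1001 and 723 with C12. In NCI-H660 it scored 1500 and 1314, and JUN covered it there only, with a score of 77. The promoter of DNPEP, an aspartyl aminopeptidase, at chr2:220263526-220263994 scored 1766, 1105 and 714 in PC3 and 1190 and 1284 in NCI-H660. Both were kept in all 3 inhibitor lists.

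Members lost in 1 line gave a different picture. The promoter of NRP1, a co-receptor of semaphorins and VEGF, at chr10:33553102-33553621 had the highest PC3 score of all members, 8091, with 8041 under ORY-1001 and 4784 under C12. In NCI-H660 it scored 249 with vehicle and was not in the ORY-1001 list. JUN scored 5497 there in PC3 after siNC and 1144 after siFOXA2, and FOSL1 scored 688 after siNC. The strongest member kept in NCI-H660 and in neither PC3 inhibitor list was in an intron of DDX60L at chr4:169363507-169363733, with 957 in PC3 vehicle and 1959 and 1718 in NCI-H660. That region was not repeated, and its central bases occurred 231 times in the genome. The strongest member in none of the 3 inhibitor lists, intergenic and nearest to LDAH at chr2:21106507-21106745, scored 349 in PC3 and 220 in NCI-H660 and was also non-repeated.

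JUN was called at part of the members only, and PC3 and NCI-H660 differed in which. Of all PC3 vehicle regions under the limit JUN of PC3 (siNC) covered 43.4%, and of all NCI-H660 vehicle regions JUN of NCI-H660 (siNC) covered 34.2%. For members these shares were 45.4% (43.4 to 47.5%) with PC3 JUN and 43.2% (41.2 to 45.2%) with NCI-H660 JUN. In repeated members PC3 JUN was below the background, at 38.8% (36.6 to 41.2%) against 44.6% of repeated PC3-only regions. The difference was −5.77 points (−8.13 to −3.36) and −15.4 points after score weighting, so under this selection members had JUN in PC3 less often at equal FOXA2 score. The JUN lists count toward the limit of 16 lists too, and with no limit the difference over all members was 9.81 points. For all members the difference had the other sign, 2.22 points (0.08 to 4.38) and −5.52 after weighting, and 66.8% of non-repeated members were covered. In NCI-H660 the paired calls of repeated members had JUN in 37.8%, against 32% of NCI-H660-only regions, a difference of 5.87 points (3.43 to 8.36) and 2.52 after weighting.

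Taking both lines, JUN covered 358 repeated members (20.5%) in PC3 and NCI-H660, 319 (18.3%) in PC3 only, 299 (17.2%) in NCI-H660 only and 767 (44%) in neither. JUN in both lines was found at 1.77% of repeated PC3-only and 1.22% of NCI-H660-only regions. Those groups were defined by no FOXA2 call in the other line and were rarely open there, so this contrast goes with the grouping. Repeated members with the AP-1 pattern were covered by PC3 JUN in 68.0% (62.7 to 72.9%) and by NCI-H660 JUN in 54.0% (48.6 to 59.4%), against 32.2% (29.9 to 34.7%) and 34.0% (31.6 to 36.5%) of those without. The pattern stood in 39.7% of members with JUN in both lines, 24.1% with JUN in PC3 only, 10.7% with JUN in NCI-H660 only and 9.26% with JUN in neither. The forkhead pattern ran the other way, from 82.7% with JUN in both lines to 92.0% with JUN in neither.

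JUN also went with the response to C12 in PC3. Of the 767 repeated members without JUN in either line C12 kept 39.6% (36.2 to 43.1%) and ORY-1001 54.0%. Of the 319 with JUN in PC3 only C12 kept 80.6% (75.9 to 84.5%) and ORY-1001 79.3%. In NCI-H660, ORY-1001 kept 76.8% of the former and 69.0% of the latter, and 83.6% of the 299 with JUN in NCI-H660 only. H3K27ac covered 51.5% of members without JUN and 82.7% of those with JUN in both lines. Scores and openness differ between these classes as well, and their part was not tested.

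After siFOXA2 the JUN list of PC3 shrank from 23890 to 4081 regions, while that of NCI-H660 grew from 18401 to 59452. Among repeated members with JUN in PC3, 93 of 677 (13.7%, 11.3 to 16.5%) still had it after siFOXA2, against 12% (11.3 to 12.7%) of repeated PC3-only regions. These intervals overlap. Non-repeated members with JUN kept it in 295 of 358 (82.4%, 78.1 to 86.0%). In NCI-H660, JUN was kept at 259 of 657 repeated members (39.4%, 35.8 to 43.2%), 38% (36.2 to 39.7%) of NCI-H660-only regions and 56 of 327 non-repeated members (17.1%). Although the NCI-H660 list was longer after siFOXA2, most repeated members with JUN were not in it. JUN appeared after siFOXA2 without siNC JUN at 88 of 1086 repeated members in NCI-H660 (8.10%) and at 4 of 1066 in PC3 (0.375%). FOSL1 of PC3 after siNC covered 5.11% of repeated and 70.5% of non-repeated members, and after siFOXA2 1.20% and 9.89%. For both JUN and FOSL1 the whole-set figures (45.4% and 20.5%) combine these unlike kinds of region.

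**Figure D5:**
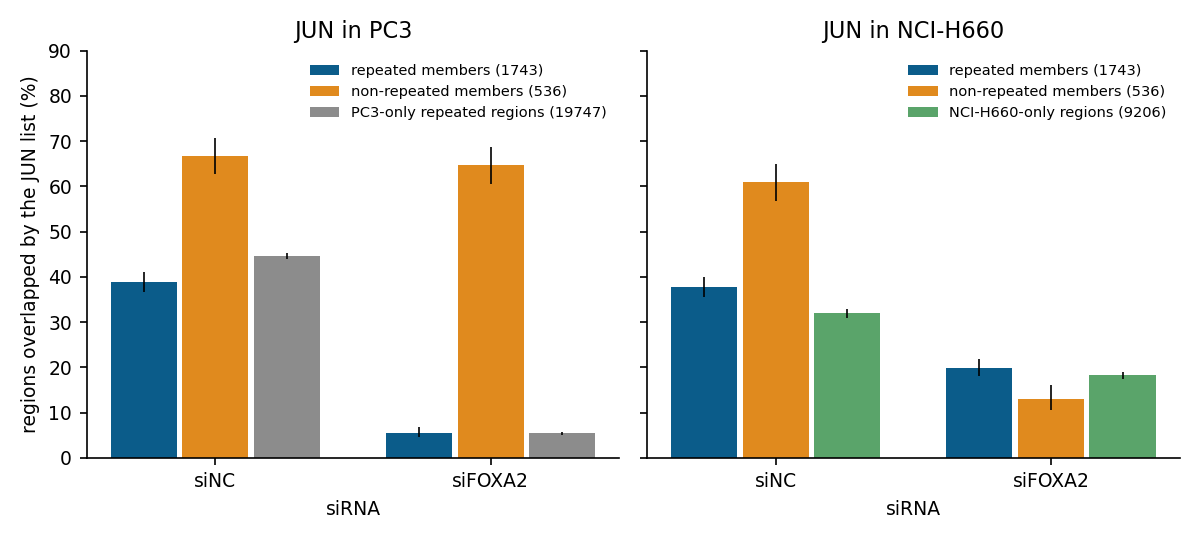
Share of repeated and non-repeated members, repeated PC3-only and NCI-H660-only regions with JUN after siNC and after siFOXA2 in PC3 and NCI-H660 (y axis, percent, with Wilson 95% intervals). In repeated members PC3 JUN goes from 38.8% to 5.57% and NCI-H660 JUN from 37.7% to 19.9%, while in non-repeated members PC3 JUN is 66.8% and 64.7%.

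In LNCaP, repeated members were seldom covered by the short lists: FOXA2 in LNCaP_FOXA2OE covered 1.95% (34), JUN after siFOXA1 1.95% (34) and JUN after siNC 5.39% (94). Non-repeated members were covered in 82.1%, 72.0% and 64.7%. The larger JUN lists did not show that split. JUN in LNCaP_FOXA2OE covered 2.98% of repeated and 5.60% of non-repeated members, and JUN in LNCaP_FOXA2K265R covered 10.6% and 9.89%. JUN in LNCaP_FOXA2K265R covered 1.99% of repeated PC3-only and 6.42% of NCI-H660-only regions, so repeated members were the most often covered of these 3 groups.

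Repeated members lay closer to gene starts than regions of either line alone. Promoters, within 1 kb of a protein-coding start in GENCODE 44 lifted to GRCh37, held 189 of them (10.8%, 9.47 to 12.4%), against 3.62% of repeated PC3-only and 4.39% of NCI-H660-only regions. The difference was 7.23 points (5.83 to 8.79) against repeated PC3-only regions. For the paired NCI-H660 calls, of which 10.7% were promoters, it was 6.35 points against NCI-H660-only regions. Introns held 43.1% and intergenic DNA 42.6%, and the distance to the nearest start was 38798 bp at the median, against 53232 bp for repeated PC3-only regions. Of non-repeated members 1.31% were promoters and 67.4% intergenic, at 119554 bp from the nearest start. Promoter members had H3K27ac in 87.8% (82.4 to 91.8%) and H3K4me2 in 76.7%, against 64.6% and 63.4% of the other repeated members. JUN of PC3 covered 22.2% (16.9 to 28.7%) of promoter members and 40.9% (38.4 to 43.3%) of the others, whereas JUN of NCI-H660 covered 44.4% and 36.9%. Of promoter members PC3 kept 76.7% (70.2 to 82.2%) under ORY-1001, and NCI-H660 kept 69.8% (63.0 to 75.9%). Of the other repeated members PC3 kept 66.3% (63.9 to 68.6%) and NCI-H660 78.2% (76.1 to 80.2%), which is the opposite order. The promoter intervals of the lines overlap, and their lists differ in length, with depth unknown. Under C12, PC3 kept 54.5% (47.4 to 61.4%) of promoter members and 56.6% (54.1 to 59.0%) of the others.

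The repeated members were spread thinly over genes. They were nearest to 1377 protein-coding genes, of which 1118 had 1, 190 had 2, 69 had 3 or more and 24 had 4 or more, and 8.15% (142) had another within 25 kb. Over all members the genes most often nearest were SPIN4 (11 members, 7 repeated), EMB (9, 2 repeated), RBMS3, MMP16, FOXP1, HNF4G, LSAMP, CWH43 and ZNF33B (6 each) and RUNX1 (5). A further 7 genes also had 5 members, and RUNX1 was named among them for its highest-ranked member. Nearness says nothing about which gene a region acts on. The SPIN4 members lie on chromosome X up to 876979 bp from the gene, and 10 of the 11 were in the short LNCaP lists, as were 8 of the 9 nearest to EMB. CWH43 and ZNF33B had 1 repeated member each. At RBMS3, FOXP1 and RUNX1 every member was repeated, and at MMP16, HNF4G and LSAMP 5 of 6 were.

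The FOXP1 and RUNX1 members show how far neighbours on a locus differed. The strongest near FOXP1, at chr3:70787042-70787481, scored 2001 in PC3 vehicle, 1605 with ORY-1001 and 1141 with C12, and 316 and 211 in NCI-H660. An intronic one at chr3:71257725-71258284 had the reverse balance, with 381, 524 and 320 in PC3 and 807 and 850 in NCI-H660. Another intronic region, chr3:71075980-71076545, scored 1672 in PC3 vehicle and 84 in NCI-H660, where it was not in the ORY-1001 list. It holds 1 forkhead and 1 AP-1 match close to each other, and JUN covered it in PC3 with a score of 469. At RUNX1 the member at chr21:36250777-36251192 scored 1597, 1648 and 1045 in PC3 and 941 and 1029 in NCI-H660, with JUN scores of 460 and 634. The other RUNX1 members scored 66 to 275 in PC3 vehicle, and 3 of these 4 were missing from the NCI-H660 ORY-1001 list.

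Gene lists chosen for this tissue were read against all protein-coding genes, of which 9.91% (1995 of 20136) had a repeated member within 50 kb. Among 16 neuroendocrine transcription factors 1 did, PAX6, and of 16 neuroendocrine secretory and surface markers 2 did, SNAP25 and PCSK2. Of 21 endoderm and epithelial factors 5 did (HNF4G, GATA6, FOXA1, FOXP1, GRHL2). Of 19 basal and mesenchymal genes 4 did (TP63, VIM, TEAD1, PTHLH), of 12 adhesion genes 2 (CDH1, EPCAM), of 14 AP-1 subunits and partners 2 (JUN, ATF3) and of 18 WNT genes 4 (LEF1, LGR4, LGR5, RNF43). The luminal keratin genes KRT8 and KRT18 did, by the same region. Of 20 axon guidance genes 9 did, and these genes span 254 kb at the median. Longer genes meet more regions: the median span was 27.3 kb over all genes, 87.5 kb in the basal and mesenchymal list, 63.9 kb in the WNT list and 55.6 kb in the adhesion list. None of 10 LSD1 complex genes did. Of 11 loci that the study tested or displayed 3 did (TP63, PTHLH, NRP1), and this list was picked on these libraries. These counts carry no test.

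At PAX6, an eye and neuroendocrine factor, the member was the promoter at chr11:31833464-31833782. It scored 241 in PC3 vehicle, was absent with ORY-1001 and scored 147 with C12, while in NCI-H660 it scored 1501 and 1728. At SNAP25, a vesicle fusion protein, the intronic member scored 175 in PC3 and was in neither PC3 inhibitor list, and it scored 194 and 222 in NCI-H660. The member within 50 kb of PCSK2, a prohormone convertase, lay outside that gene, at the promoter of its neighbour BFSP1. It scored 121 in PC3 vehicle and 211 with ORY-1001, was absent with C12, and scored 175 and 102 in NCI-H660. The member nearest to GRHL2, an epithelial factor, outside the gene body scored 211 in PC3 and was in neither PC3 inhibitor list, and it scored 1267 and 1190 in NCI-H660. A second GRHL2 member, in an intron, had the other balance, with 2155, 447 and 423 in PC3 and 260 and 225 in NCI-H660.

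Within 50 kb of FOXA1, the FOXA family member of luminal cells, 2 members were in introns or exons of neighbouring genes. One at chr14:38015982-38016435 scored 573, 604 and 261 in PC3 and 1097 and 1087 in NCI-H660. The other, at chr14:38110290-38110715, scored 789, 62 and 131 in PC3 and 560 and 619 in NCI-H660. Both were kept everywhere, and the second had much the lower treated scores in PC3. The shared start region of KRT8 and KRT18, the keratins of luminal epithelium, at chr12:53343521-53343924 scored 1229, 1299 and 766 in PC3 and 408 and 420 in NCI-H660. JUN covered it with 616 in PC3 and 1073 in NCI-H660, and at 16 lists it stands on the limit of the selection. At CDH1, the E-cadherin gene, an intronic member scored 471, 425 and 263 in PC3 and 181 in NCI-H660, where it was not kept.

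In TP63 the member at chr3:189430847-189431247 scored 716 in PC3 vehicle, 274 with ORY-1001 and 255 with C12, and 523 and 575 in NCI-H660. A second TP63 intronic member scored 44 in PC3, was in neither inhibitor list there, and scored 68 and 80 in NCI-H660. The PTHLH member, in an intron of this parathyroid hormone-like gene, scored 93 in PC3 and was in neither PC3 inhibitor list, and it scored 201 and 325 in NCI-H660. Near JUN itself an intergenic member at chr1:59280863-59281169 scored 339, 415 and 198 in PC3 and 359 and 403 in NCI-H660. No siNC JUN list covered it in either line. In ATF3 the member at chr1:212740497-212740784, which holds both patterns, scored 176, 136 and 123 in PC3 and 192 and 259 in NCI-H660, with JUN at 139 and 419. In LEF1 the member scored 237 in PC3 vehicle, was absent with ORY-1001 and scored 125 with C12, and in NCI-H660 it scored 96 and was not kept. In LGR4, a receptor of R-spondins, the stronger member at chr11:27423289-27423869 scored 672, 716 and 355 in PC3 and 954 and 828 in NCI-H660.

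The FOXA2 locus was looked at after its values were seen. It had no member within 50 kb of the gene, but 3 repeated members were nearest to it, between 68169 and 176705 bp away. The strongest, at chr20:22492992-22493466, scored 2377 in PC3 vehicle, 1839 with ORY-1001 and 1221 with C12, and 169 and 66 in NCI-H660. The second scored 778, 602 and 320 in PC3 and 208 and 164 in NCI-H660, and the weakest 349, 337 and 147 in PC3 and 74 and 61 in NCI-H660. All 3 were kept in every treated list, with higher scores in PC3. HES1 and JAG1, a target and a ligand of the Notch pathway, were also chosen after their values were seen. Of the 4 members nearest to HES1, the one 1052 bp from the gene at chr3:193852583-193852884 scored 352, 316 and 178 in PC3 and 167 and 108 in NCI-H660. Of the 3 nearest to JAG1, the strongest in NCI-H660 scored 254, 184 and 153 in PC3 and 636 and 964 in NCI-H660, and the other 2 were in neither PC3 inhibitor list.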

How the data were processed

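ChIP-seq and ATAC-seq libraries of PC3, NCI-H660 and LNCaP cells, 1 per list, were deposited by the authors as lists of regions on hg19. The submitters' notes name BWA 0.7.17-r1188, SAMtools 1.9, FastQC 0.11.9 and MACS2 2.1.4; control library, calling threshold and pooling are not given in the sources used here. The deposited score is a whole number read, from its values, as 10 times the −log10 q-value, and 2 lists of the authors hold positions only, with no score. Depth per sample is unknown. Overlap meant 1 bp. Promoters lay within 1 kb of a protein-coding start (GENCODE 44 on GRCh37); motifs were counted within 100 bp of the centre. Weighted differences give comparison regions the members' distribution over 10 score deciles. Apart from vehicle FOXA2 of PC3 each condition had 1 library, and no test was run. Python 3.11.15, pandas 2.3.3, pysam 0.24.0 and statsmodels 0.14.6 were used, and the counting was tested on simulated data. Members and gene lists were chosen with earlier results of these data known. Named regions were the 6 highest by mean vehicle percentile, the highest of each response, JUN, promoter and accessibility class, the 10 genes nearest to most members, and up to 3 genes per list. Alternatives were another overlap, score minimum, limit on lists, list size, window and pattern. 1 of the 6 highest regions and 1 of the gene lists are not reported here.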

Additional observations from a re-analysis of the deposited data

How the results depend on the processing

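Members kept more often than other regions kept that direction under every alternative run, while the sign of the PC3 JUN difference depended on the choice of regions. Asking for an overlap of 50% of both regions moved JUN in NCI-H660 to 37.0%, openness in both lines from 77.8% to 32.8% and the forkhead share to 74.4%. The ATAC-seq lists differed from the members in median width (221 bp in PC3 and 530 bp in NCI-H660), and the part of width was not tested. A score of at least 100 in both vehicle lists left 1401 members, with 78.5% kept under ORY-1001 and 68.9% under C12 in PC3, 88.9% kept in NCI-H660, 46.4% with JUN in NCI-H660, 84.9% open in both lines and 81.2% with a forkhead pattern. With no limit on the number of lists these were 73.6%, 64.9%, 82.8%, 51.3%, 80.1% and 69.4%, and JUN in PC3 was 53.0%. With fewer than 12 lists 1343 members remained, with 51.8% and 39.8% kept in PC3, 72.0% kept in NCI-H660, JUN in 24.1% and 20.7%, and a forkhead pattern in 82.6%; this limit counts the measured lists themselves and so lowers shares by construction. Among members also in both other PC3 ChIPs C12 kept 56.3%, ORY-1001 kept 77.3% in NCI-H660, JUN stood at 38.8% and 37.7%, 90.6% were open in both lines and 88.2% held the forkhead pattern. Leaving out regions in the 3 short LNCaP lists, chosen after seeing the data, gave 65.1% and 53.9% kept in PC3, 76.9% kept in NCI-H660, JUN in 35.2% and 35.1%, openness in 90.4% and a forkhead pattern in 88.6%. Lists of equal numbers of highest-scoring regions gave 79.1% kept under ORY-1001 and 79.8% under C12. Windows of 250 bp on either side gave a forkhead share of 88.8%, and TGTTTAC alone 36.9%. The PC3 JUN difference between members and PC3-only regions, 2.22 points, became −3.01 at a score of 100, −18.4 with fewer than 12 lists, −5.77 in both other ChIPs, −5.52 after score weighting and −7.14 outside the LNCaP lists, but 9.81 with no limit on lists and 5.14 at an overlap of 50%. The NCI-H660 JUN difference, 11.3 points, became −10.4 with fewer than 12 lists, 19.3 with no limit and 15.01 at an overlap of 50%. Applying the region settings to these differences was chosen after seeing the data, and beyond the construction named the cause was not tested. No paired analysis was possible because each list was 1 library, and no result came from a test. Unknown depth limits what absence from a list says.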
